A study of Mus musculus with 22 samples.

Results

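A set of 5 markers of dorsal horn interneurons was followed through GFP+ and GFP- nuclei of the postnatal mouse spinal cord. They are the genes of the calcium-binding proteins calbindin (Calb1), calretinin (Calb2) and parvalbumin (Pvalb), and of the retinoid-related orphan receptors alpha (Rora) and beta (Rorb). They were chosen by name, as markers of interneuron subsets and with earlier results of these data known. They are 5 of the 21363 genes in the authors' table. Nuclear RNA was sequenced from lumbar dorsal horn of pDyn-Sun1-GFP mice, in which the promoter of prodynorphin (pDyn) drives Sun1-GFP, a nuclear envelope protein fused to GFP. Each of 11 animals gave 1 GFP+ and 1 GFP- library of 5000 sorted nuclei. The groups were GFP+ (pDyn-lineage) nuclei at postnatal day 7 (P7, n = 4), P21 (n = 3) and P80 (n = 4), and GFP- nuclei of the same animals at P7 (n = 4), P21 (n = 3) and P80 (n = 4). Animals of both groups carry the transgene, so GFP- nuclei are the remainder of the dorsal horn after the sort and not a wild-type control, and mice of both sexes were used. Per the labels the GFP+ nuclei belong to a lineage, and the sources used here do not say whether GFP marks past or only present activity of the promoter.

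Calbindin, calretinin and parvalbumin bind calcium through EF-hand motifs and shape how long calcium stays free in the cytoplasm. In the dorsal horn, calbindin and calretinin are known from many neurons of the superficial laminae, calretinin mainly from excitatory ones, and parvalbumin from neurons at the border of the inner superficial and the deeper laminae. RORα and RORβ are nuclear receptors that bind DNA next to an AGGTCA half-site and are also known from the circadian clock. RORα marks excitatory interneurons that receive light-touch input, and RORβ marks a group of mostly inhibitory interneurons that gate sensory input to the cord.

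Rora and Rorb, paralogs that lay on opposite sides of the sort, are shown by their promoters. Each line runs 5′ to 3′ on the gene's strand from 250 bases before to 50 bases from the RefSeq start (GRCm38.p6), at chr9:68653536-68653835 on the plus strand for Rora and chr19:19111147-19111446 on the minus strand for Rorb. Capitals mark matches to CCAAT or GGGCGG on either strand.
Rora: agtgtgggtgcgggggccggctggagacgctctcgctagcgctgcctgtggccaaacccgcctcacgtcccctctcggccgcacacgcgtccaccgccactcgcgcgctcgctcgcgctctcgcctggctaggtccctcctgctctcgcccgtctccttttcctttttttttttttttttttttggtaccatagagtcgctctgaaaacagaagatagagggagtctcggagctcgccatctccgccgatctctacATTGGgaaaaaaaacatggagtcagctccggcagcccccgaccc
Rorb: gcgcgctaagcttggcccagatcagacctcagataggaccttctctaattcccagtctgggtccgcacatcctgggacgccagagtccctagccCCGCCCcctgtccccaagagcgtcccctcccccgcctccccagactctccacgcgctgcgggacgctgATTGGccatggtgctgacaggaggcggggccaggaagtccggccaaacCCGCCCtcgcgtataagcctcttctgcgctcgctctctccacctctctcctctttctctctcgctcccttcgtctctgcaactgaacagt
The Rora window held 1 CCAAT match, written ATTGG because it lies on the opposite strand, and no GGGCGG. The Rorb window held 1 CCAAT match and 2 GGGCGG matches, of which the GGGCGG ones read CCGCCC here. The letters CCAAT occurred in 37.4% and GGGCGG in 35.7% of all 32851 RefSeq promoter windows of 300 bases. The ROR half-site AGGTCA (16.3% of all windows) and TATAAA (13.6%) were not among the letters of either window, searched on both strands, and no motif overlapped another. G and C made up 60.3% of the Rora window and 63.7% of the Rorb window, against a median of 52.7% over all windows. Of the 5 genes, 3 had an entry in the table, and the third, Pvalb (58.3% G and C), held none of the 4 motifs.

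The 22 libraries held 4244987 to 10849169 reads in genes, and between 20014 and 21027 genes had a read. Values are normalized counts, that is reads divided by 1 size factor per library, and 1 read was worth 0.547 to 1.31. Libraries are named by the codes of the authors' columns (ES1 to ES24), and animals cannot be joined to them. Prodynorphin (Pdyn), the gene behind the sort, read 405 to 663 in the GFP+ libraries and 0 to 15.7 in the GFP- libraries (difference 6.25 ± 0.37, adjusted p = 4.49e-11 with limma). Differences here are in log2(value + 1) with their standard error, from 1 limma fit to the 18614 genes with a value of 10 in 3 or more libraries, all 5 markers among them, and a gene was called at a Benjamini-Hochberg adjusted p under 0.05. Marker genes of other cells moved with the sort. Of 14 pan-neuronal genes 13 were called higher in GFP+ nuclei, while all 14 oligodendrocyte, 9 oligodendrocyte precursor and 12 astrocyte genes tested, 11 of 12 microglial and 9 of 10 vascular genes were called lower. Among neuronal genes, 9 of 11 inhibitory ones were higher and 1 lower (median 1.82), and 2 of 10 excitatory ones were higher and 5 lower (median -0.61). Summed primary sensory neuron genes were 24.97 to 93.1 in GFP+ libraries and 24.8 to 57.0 in GFP- libraries, and summed motor neuron genes 7.83 to 106 in GFP+ libraries and 18.1 to 166 in GFP- libraries. The summed oligodendrocyte genes were 2389 to 11854 in GFP+ libraries and 31265 to 128125 in GFP- libraries, and no marker was at 0 in all libraries of a population. The mean log2 level of the pan-neuronal genes was 9.73 to 9.997 in GFP+ libraries and 8.50 to 9.46 in GFP- libraries, lowest in the GFP- libraries ES12 (8.50), ES8 (8.55) and ES16 (8.58). Results that rest on these 3 libraries were therefore also computed without them, a setting chosen after seeing the data. It leaves ES14 as the only GFP- library at P21, so that group then has no replicate.

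Over the 3 ages, 1 of the 5 genes was higher in GFP+ nuclei (Rorb), 3 were lower (Calb1, Calb2 and Rora) and Pvalb was not called. Of all genes tested, 48.2% were called in this comparison (22.6% higher, 25.5% lower), so a call by itself was common. Without ES8, ES12 and ES16 Rorb stayed higher and Calb1, Calb2 and Rora stayed lower. In bulk nuclei, fewer nuclei of a type and less RNA per nucleus cannot be told apart.

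**Figure D1:**
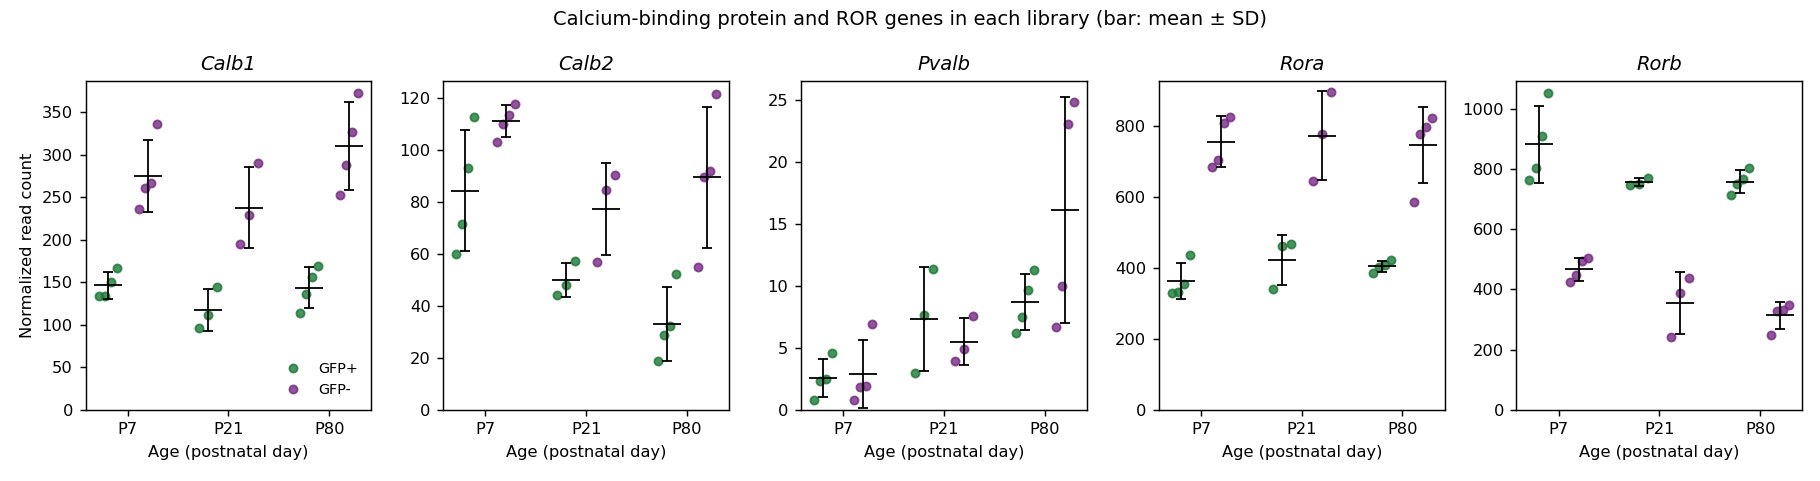
Normalized counts of the 5 genes per library, by age (postnatal day) and population, GFP+ left of GFP-. Points are libraries, and bars are group means with the SD. The GFP+ points of Rorb (714 to 1052) lie above all GFP- points (241 to 504), those of Rora and Calb1 lie below all GFP- points, and those of Calb2 and Pvalb overlap with GFP- points.

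Rorb, the gene of RORβ, was the one marker with more transcript in GFP+ nuclei. At P7 its normalized counts were 1052, 765, 909 and 802 in GFP+ libraries, against 423, 448, 494 and 504 in GFP- libraries. At P21 they were 750.3, 771 and 747 in GFP+ libraries, against 439, 388 and 241 in GFP- libraries. At P80 they were 766, 803, 714 and 752 in GFP+ libraries, against 349, 328, 333 and 249 in GFP- libraries. The lowest GFP+ library lay above the highest GFP- library over all ages, as it did for 3.60% of the genes tested (8.42% counting either direction). The difference over ages was 1.11 ± 0.09 (adjusted p = 1.75e-09 with limma). Taken by age, P7 gave 0.91 ± 0.15, P21 1.13 ± 0.17 and P80 1.28 ± 0.15, each called.

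Rora, the gene of RORα, lay the other way. Its normalized counts at P7 were 437, 330.1, 355 and 332 in GFP+ libraries and 809, 685, 826 and 706 in GFP- libraries. At P21 the GFP+ libraries had 467, 461 and 341, and the GFP- libraries 778, 895 and 644. At P80 the GFP+ libraries had 423, 409, 404 and 386, and the GFP- libraries 797, 822, 779 and 587. No GFP+ library reached the lowest GFP- library, a pattern that 4.81% of the genes tested shared. The difference over ages was -0.93 ± 0.08 (adjusted p = 4.78e-09 with limma), with -1.06 ± 0.13 at P7, -0.87 ± 0.15 at P21 and -0.87 ± 0.13 at P80, called at each age. An exon of Rora overlaps Gm15511 on the opposite strand (GENCODE M21), and with the strand setting of the authors' counting not given in the sources used here, reads of the 2 genes cannot be told apart.

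The ratio of Rorb to Rora reads within a library does not depend on how libraries are scaled. It averaged 2.06 ± 0.332 in GFP+ libraries (SD, n = 11; 1.61 to 2.56) and 0.504 ± 0.114 in GFP- libraries (SD, n = 11; 0.374 to 0.714). The ranges did not overlap, which follows from the separate ranges of Rorb and Rora above and adds no further evidence. By age in GFP+ nuclei, P7 gave 2.42 ± 0.100, P21 1.82 ± 0.320 and P80 1.87 ± 0.0990. In GFP- nuclei P7 gave 0.622 ± 0.0810, P21 0.457 ± 0.0976 and P80 0.422 ± 0.0166 (SD, n = 4, 3 and 4 at these ages). Across all 22 libraries the log2 levels of the receptor genes ran against each other (Pearson's r = -0.79), while their deviations from the 6 group means ran together (r = 0.67). Both are descriptions over libraries that share the sort and, in part, animals.

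**Figure D2:**
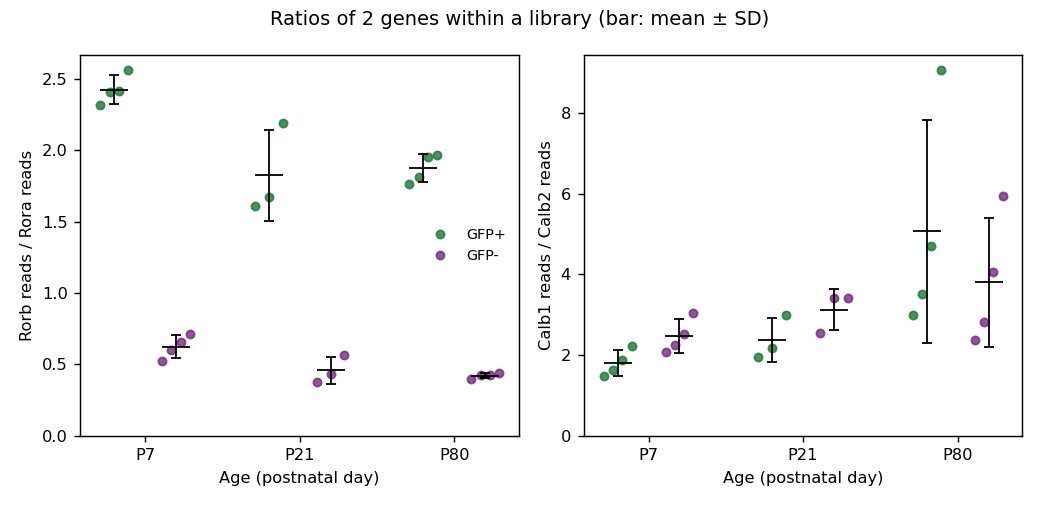
Ratios of reads within each library, by age and population, GFP+ left of GFP-. Points are libraries, bars are means with the SD, and a ratio does not change with the scaling of libraries. The Rorb to Rora ratio lies between 1.61 and 2.56 in GFP+ libraries and between 0.374 and 0.714 in GFP- libraries, and the Calb1 to Calb2 ratio overlaps between the populations.

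Calb1, which encodes calbindin, was lower in GFP+ nuclei. At P7 its normalized counts were 134, 166, 134 and 151 in GFP+ libraries, against 336, 266, 237 and 261 in GFP- libraries. At P21 they were 96.5, 145 and 111 in GFP+ libraries, against 229, 289.6 and 195 in GFP- libraries. At P80 they were 113, 136, 169 and 156 in GFP+ libraries, against 326, 372, 288 and 252 in GFP- libraries. All GFP+ libraries lay below all GFP- libraries, as for 4.81% of genes. The difference over ages was -1.01 ± 0.10 (adjusted p = 4.63e-08 with limma), and P7 gave -0.90 ± 0.17, P21 -1.01 ± 0.19 and P80 -1.11 ± 0.17, each called.

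Calb2, which encodes calretinin, was lower in GFP+ nuclei over the 3 ages and at P80. In GFP+ libraries its normalized counts were 71.6, 113, 60.1 and 92.9 at P7, 44.3, 48.2 and 57.1 at P21, and 32.2, 28.9, 18.6 and 52.2 at P80. In GFP- libraries they were 110.0, 118, 113 and 103 at P7, 90.2, 84.7 and 56.9 at P21, and 54.8, 91.7, 121 and 89.5 at P80. The populations overlapped at P7 and P21, and at P80 all GFP+ libraries lay below all GFP- libraries, as for 17.1% of genes at that age. The difference was -0.83 ± 0.17 over ages (adjusted p = 0.000261 with limma) and -1.45 ± 0.27 at P80 (adjusted p = 0.000311). At P7 it was -0.43 ± 0.27 (adjusted p = 0.315) and at P21 -0.60 ± 0.31 (adjusted p = 0.148). These values rest on 15 to 137 reads in GFP+ libraries and 42 to 146 reads in GFP- libraries.

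Pvalb, which encodes parvalbumin, was at the edge of detection in both populations. In GFP+ libraries its normalized counts were 4.54, 0.823, 2.45 and 2.34 at P7, 11.4, 7.67 and 3.01 at P21, and 6.23, 9.64, 7.46 and 11.3 at P80. In GFP- libraries they were 1.85, 0.807, 6.90 and 1.89 at P7, 3.96, 7.59 and 4.92 at P21, and 24.8, 6.71, 23.1 and 9.95 at P80. The populations overlapped at every age. The gene had 1 to 13 reads per GFP+ library (64 in all) and 1 to 23 per GFP- library (90 in all). The difference over ages was -0.14 ± 0.32 (adjusted p = 0.746 with limma), and its 95% interval, -0.81 to 0.53, leaves room for a change in either direction. At P7 the difference had an adjusted p of 0.998, at P21 it was 0.25 ± 0.61 and at P80 -0.68 ± 0.53, none of them called.

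At single ages the counts of the 5 genes were 1 higher and 2 lower at P7, where 17.2% of all genes were called, 1 higher and 2 lower at P21 (32.9% of all genes), and 1 higher and 3 lower at P80 (28.0%). In the authors' deposited table the log2 fold changes over ages were -1.01 for Calb1, -0.82 for Calb2, -0.24 for Pvalb, -0.94 for Rora and 1.10 for Rorb. Its adjusted p-values were under 0.05 for the same 4 genes as above, at 3.32e-18 for Calb1, 0.00058 for Calb2, 1.47e-41 for Rora and 1.8e-24 for Rorb, and 0.721 for Pvalb.

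**Figure D3:**
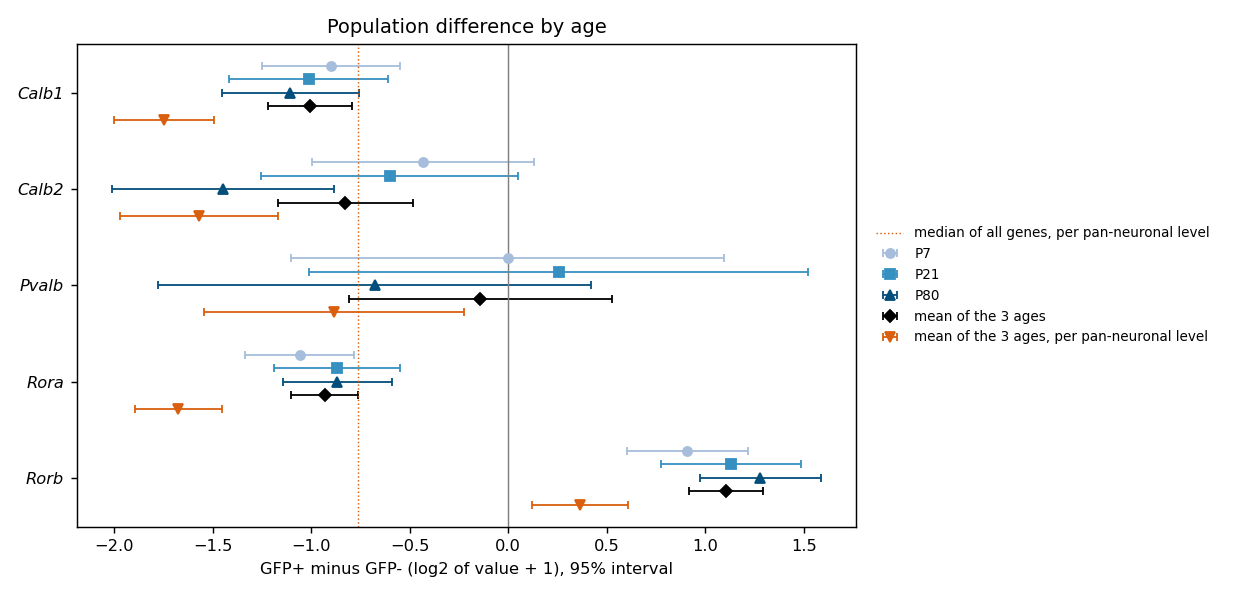
Difference GFP+ minus GFP- of the 5 genes in log2(value + 1), at each age, over ages and over ages relative to pan-neuronal genes, with 95% intervals from limma. The dotted line is the median of all genes relative to pan-neuronal genes (-0.77). Rorb lies above 0 and Calb1 and Rora below 0 throughout, Calb2 has its lowest single age at P80 (-1.45), and without the pan-neuronal scaling the intervals of Pvalb cover 0.

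GFP- nuclei held more glial and fewer neuronal transcripts, so each gene was also expressed relative to the mean log2 level that the 14 pan-neuronal genes had in that library. Under this scaling the median gene shifted to -0.77 with all libraries and to -0.50 without ES8, ES12 and ES16, and with all libraries 77.2% of genes were called (3.86% higher, 73.4% lower). Rorb was still called higher in GFP+ nuclei, by 0.36 ± 0.12 (adjusted p = 0.00764 with limma), against a median gene that was lower. Calb1 was at -1.75 ± 0.12, Rora at -1.67 ± 0.11 and Calb2 at -1.57 ± 0.19, each called and each below the median gene. The scaling moves the difference of every gene by the same amount, so each gene keeps its place against the median gene. Pvalb was at -0.88 ± 0.32 (adjusted p = 0.0153) with all libraries, and without ES8, ES12 and ES16 it was -0.85 ± 0.41 and no longer called (adjusted p = 0.0704). In log2 relative to the pan-neuronal mean, Rorb averaged -0.20 ± 0.17 in GFP+ libraries and -0.58 ± 0.36 in GFP- libraries (SD, n = 11 each), and here the ranges overlapped. Rora averaged -1.22 ± 0.22 in GFP+ libraries and 0.43 ± 0.33 in GFP- libraries, and all GFP+ libraries lay below all GFP- libraries, as for 18.0% of genes under this scaling. How far the glial share of GFP- nuclei enters the differences without this scaling was not tested.

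**Figure D4:**
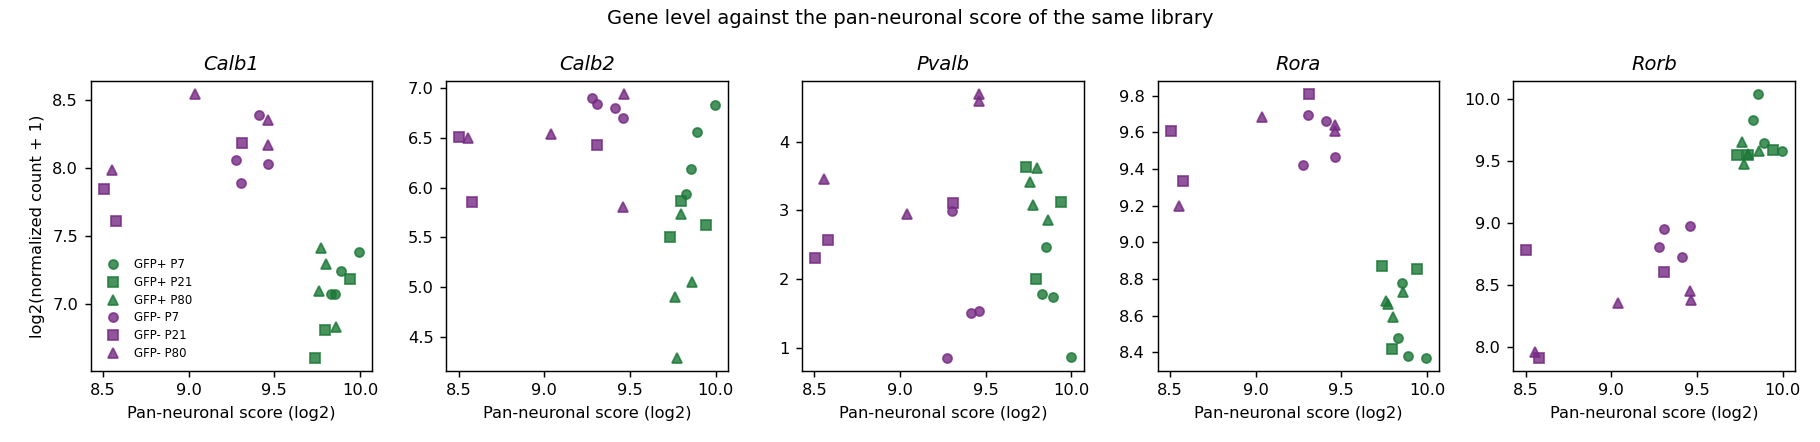
Level of each gene, log2(value + 1), against the mean log2 level of the pan-neuronal genes in that library. Points are libraries, coloured by population, GFP+ first in the legend. GFP+ libraries lie between 9.73 and 9.997 on the horizontal axis and GFP- libraries between 8.50 and 9.46, so the populations do not share a range of it.

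In the limma fit above, genes of the 5 were called between ages only for P80 against P7. In GFP+ nuclei Calb2 was the one gene called between P80 and P7, at -1.38 ± 0.27 (adjusted p = 0.00208 with limma), where 9.39% of all genes were called, 3.48% higher and 5.91% lower. Its mean at P7 was 84.3 ± 23.3, at P21 49.9 ± 6.59 and at P80 33.0 ± 14.1 (SD, n = 4, 3 and 4), and each P80 library lay below each P7 library, as for 14.2% of genes in GFP+ nuclei. The step at P21 was -0.71 ± 0.29 against P7 (adjusted p = 0.257), and P80 minus P21 was -0.66 ± 0.29, neither of them called. In the authors' deposited table the test across ages in GFP+ nuclei gave adjusted p-values of 0.00038 for Calb2, 0.358 for Calb1, 0.196 for Pvalb, 0.404 for Rora and 0.193 for Rorb. Microglial genes were not called in GFP+ nuclei between P80 and P7, while many markers of other glia were lower at P80. Of the genes tested, 10 of 14 for oligodendrocytes, 8 of 9 for their precursors and 9 of 12 for astrocytes were called, with median differences of -1.74, -2.87 and -1.91, and the part of these cells in the Calb2 difference was not tested.

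The other 4 genes were not called between P80 and P7 in GFP+ nuclei. Pvalb came nearest, at 1.53 ± 0.53 (adjusted p = 0.0745 with limma), with means of 2.54 ± 1.53 at P7, 7.34 ± 4.18 at P21 and 8.66 ± 2.26 at P80. Calb1 differed by -0.04 ± 0.17, Rora by 0.16 ± 0.13 and Rorb by -0.21 ± 0.15. Rorb averaged 882 ± 129 at P7, 756 ± 13.1 at P21 and 759 ± 37.0 at P80, with ES17 (1052, at P7) the highest library. None of the 5 genes was called by limma between P21 and P7 in GFP+ nuclei (2.33% of all genes) or between P80 and P21 (0.242%), nor by edgeR or DESeq2. Before adjustment Calb2 and Pvalb were under 0.05 for P21 against P7, and Calb2 for P80 against P21.

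In GFP- nuclei the genes called between P80 and P7 were others, Pvalb and Rorb, where 16.3% of all genes were called (7.56% higher, 8.77% lower). Pvalb was higher at P80 by 2.20 ± 0.53 (adjusted p = 0.00573 with limma), on a total of 59 reads in 4 libraries at P80 and 12 in 4 libraries at P7. The P80 libraries were split, with 24.8 and 23.1 in ES2 and ES6 and 6.71 and 9.95 in ES4 and ES8, and ES4 lay below the highest P7 library (6.90). Rorb was lower at P80 (-0.58 ± 0.15, adjusted p = 0.00934), with means of 467 ± 38.0 at P7, 356 ± 103 at P21 and 315 ± 44.8 at P80, and no P80 library reached the P7 range, as for 11.2% of genes in GFP- nuclei. Its step at P21 against P7 was -0.43 ± 0.16 (adjusted p = 0.085). That step was called when libraries were scaled to total reads (-0.56 ± 0.17, adjusted p = 0.0372 with limma). It was also called without ES12 (-0.61 ± 0.17, adjusted p = 0.0251) or ES14 (-0.52 ± 0.18, adjusted p = 0.045). Without ES8 the step was called just under the threshold (-0.43 ± 0.15, adjusted p = 0.05 after rounding). Calb2, Calb1 and Rora had differences between P80 and P7 of -0.36 ± 0.27, 0.17 ± 0.17 and -0.03 ± 0.13, not called. No gene of the 5 was called by limma between P21 and P7 in GFP- nuclei (10.1% of all genes) or between P80 and P21 (1.95%), nor by edgeR or DESeq2. Before adjustment Rorb was under 0.05 for P21 against P7, and Calb1 and Pvalb for P80 against P21. Beside these, 4 of 14 oligodendrocyte genes were called higher and 7 of 9 precursor genes lower at P80 in GFP- nuclei. Also called lower were 5 of 12 astrocyte genes, 3 of 10 vascular genes, 4 of 14 pan-neuronal genes (median -0.17, with 1 higher) and 2 of 11 inhibitory genes (median -0.44). At P21 against P7 in GFP- nuclei, 5 of 14 pan-neuronal (median -0.56), 5 of 11 inhibitory (median -0.92) and 4 of 10 excitatory genes (median -0.74) were called lower and 5 of 14 oligodendrocyte genes higher. The part of these shifts in the Pvalb and Rorb differences was not tested.

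**Figure D5:**
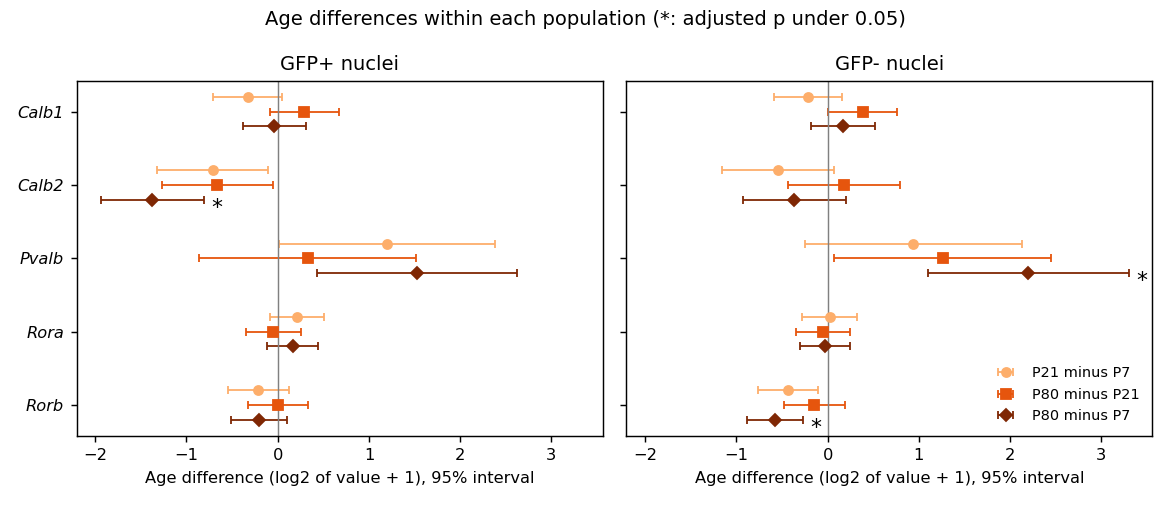
Differences between ages in log2(value + 1) with 95% intervals from limma, GFP+ nuclei in the left panel and GFP- nuclei in the right. Asterisks mark an adjusted p under 0.05, which Calb2 has in GFP+ nuclei (-1.38) and Pvalb (2.20) and Rorb (-0.58) have in GFP- nuclei, each for P80 minus P7.

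Being called in 1 population and not in the other does not show that the ages acted differently, and the difference of the differences was tested. The Calb2 difference GFP+ minus GFP- at P80 minus that at P7 was -1.02 ± 0.38 (adjusted p = 0.242 with limma, under 0.05 before adjustment), not called, while 2.07% of all genes were. For Rorb it was 0.37 ± 0.21 (adjusted p = 0.562), and for Calb1, Pvalb and Rora the adjusted p lay between 0.83 and 0.865. The joint test of population and age over the 3 ages called 0.951% of all genes and none of the 5 with limma, with an adjusted p of 0.379 for Calb2, the one gene of the 5 under 0.05 before adjustment, and of 0.631 to 0.873 for the others. The ratio of Calb1 to Calb2 reads in GFP+ nuclei averaged 1.80 ± 0.328 at P7, 2.38 ± 0.553 at P21 and 5.07 ± 2.76 at P80, and 2.48 ± 0.421, 3.13 ± 0.509 and 3.80 ± 1.60 at the same ages in GFP- nuclei (SD, n = 4, 3 and 4). The spread at P80 in GFP+ nuclei came mainly from ES5, at 9.07.

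Ordered by mean, the 6 groups of Rorb ran from GFP+ at P7 to GFP- at P80. For Rora and Calb1 all 3 GFP+ means lay below all 3 GFP- means. Neighbours in these orders overlapped in their libraries except where the order passed between the populations. For Calb2 and Pvalb all neighbours overlapped. The highest mean of Calb2 was 111 ± 6.24 in GFP- nuclei at P7 and the lowest 33.0 ± 14.1 in GFP+ nuclei at P80, and for Pvalb the highest was 16.1 ± 9.14 in GFP- nuclei at P80.

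The genes whose levels over the 22 libraries were most like each marker were taken from 8676 genes of at least median level, by Pearson's r of log2(value + 1). For Rorb they were the sodium-activated potassium channel gene Kcnt2 (r = 0.97), the glucuronyltransferase gene B3gat2 (0.96) and Hmga2 (0.96), a gene of a chromatin protein. Kcnt2 averaged 2640 normalized counts in GFP+ libraries and 464 in GFP- libraries. Rora was followed by Fut9 (0.95), a fucosyltransferase gene, Ssbp2 (0.95) and Nmur2 (0.93), the neuromedin U receptor gene that is also on the excitatory neuron list used here, and Nmur2 averaged 86.0 in GFP+ and 211 in GFP- libraries. For Calb1 they were Rreb1 (0.92), Pde1c (0.92), a phosphodiesterase gene regulated by calmodulin, and Fam196a (0.89). Calb2 was followed by Rgma (0.90), the gene of a guidance molecule, Slc39a12 (0.88), a zinc transporter gene, and Cspg4 (0.87), a gene of oligodendrocyte precursors. Pvalb had Nudcd3 (0.87), Adcy9 (0.85), an adenylyl cyclase gene, and Wwox (0.84). The libraries share the sort and the ages, so these values describe likeness only.

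Other genes of calcium buffering and sensing were more often called higher than lower in GFP+ nuclei, unlike Calb1 and Calb2. Relative to pan-neuronal genes more of them were called lower than higher, but their median stayed above that of all genes. Of 26 other EF-hand and related calcium sensor genes tested, 17 were called higher and 4 lower in GFP+ nuclei over ages. Of all genes, 22.6% were called higher and 25.5% lower. The median of the list was 0.60 against -0.02 for all genes. Cabp1 (1.78 ± 0.21), which modulates calcium channels, and Kcnip2 (1.70 ± 0.14), a subunit of A-type potassium channels, were higher, while S100a16 (-2.87 ± 0.24) and S100a1 (-2.44 ± 0.37) were lower. Relative to pan-neuronal genes, where every gene moves by the same amount, the median was -0.14, with 5 higher and 9 lower. In the same fit the median of all genes was -0.77, with 3.86% of all genes called higher and 73.4% lower. Of 25 genes of calcium channels, stores and exchangers, 19 were higher and 5 lower (22.6% and 25.5% of all genes). Their median was 0.74, and 0.40 without ES8, ES12 and ES16. Relative to pan-neuronal genes 8 were higher and 9 lower (3.86% and 73.4% of all genes). Their median there was -0.01 against -0.77 for all genes. The ryanodine receptor gene Ryr1 (2.22 ± 0.24) and the exchanger gene Slc24a4 (2.26 ± 0.10) were higher, and the store channel genes Itpr2 (-2.46 ± 0.11) and Itpr3 (-1.57 ± 0.31) were lower.

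Of 22 genes known from fast-spiking, parvalbumin-type neurons, 13 were called higher and 4 lower in GFP+ nuclei over ages. In that comparison 22.6% of all genes were called higher and 25.5% lower. The median of the list was 0.47, and 0.19 without ES8, ES12 and ES16. Relative to pan-neuronal genes 3 were higher and 11 lower (median -0.27). In that fit 3.86% of all genes were higher and 73.4% lower (median -0.77). Kcnc2 (1.91 ± 0.13), a potassium channel gene of fast repolarization, and Parm1 (2.26 ± 0.07) were higher, while Erbb4 (-1.54 ± 0.11), the neuregulin receptor gene, and Kcna1 (-1.17 ± 0.15) were lower. Kcna1 was higher at P80 than at P7 in GFP+ nuclei (1.42 ± 0.24) and in GFP- nuclei (2.28 ± 0.24). In each population 3 genes of this list were higher and none lower at P80 with limma. Of all genes, 3.48% were higher in GFP+ nuclei and 7.56% in GFP- nuclei. Without ES8, ES12 and ES16 more genes of this list were called, and so were more genes over all. Whether this list or the lists that follow rose beyond all genes was not tested.

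Clock genes linked to ROR proteins were mostly not called between the populations, where 48.2% of all genes were called. Of 17 tested, 4 were higher, 1 lower and 12 not called over ages, with a median of 0.01, and relative to pan-neuronal genes 1 was higher and 16 lower with a median of -0.74, against -0.77 for all genes in the same fit. Hlf (1.70 ± 0.07), which encodes a PAR bZIP factor, was higher, and Bhlhe40 (-0.84 ± 0.13), the gene of a clock repressor, was lower. At P80 against P7, 4 of the 17 were called higher (7.56% of all genes) and none lower (8.77%) in GFP- nuclei with limma. Among them were Per1 (1.07 ± 0.24), Bhlhe41 (0.73 ± 0.12) and Tef (0.40 ± 0.11). In GFP+ nuclei Bhlhe41 (0.74 ± 0.12) was the one called, where 9.39% of all genes were called. Without ES8, ES12 and ES16 the counts were 6 higher in GFP- nuclei and 2 higher in GFP+ nuclei, and none lower. Other laminar markers were divided. Of 25 tested, 11 were higher and 11 lower, where 22.6% of all genes were higher and 25.5% lower. The median of the list was -0.15, and -0.35 without ES8, ES12 and ES16. The largest changes in either direction were all higher, the peptide gene Gal at 5.01 ± 0.28, Nos1 at 3.47 ± 0.17, Neurod2 at 3.43 ± 0.27 and Rspo3 at 3.39 ± 0.30. Relative to pan-neuronal genes 5 were higher and 15 lower, where 3.86% of all genes were higher and 73.4% lower. At P80 against P7, 8 of these 25 were called lower (5.91% of all genes) and 1 higher (3.48%) in GFP+ nuclei. In GFP- nuclei 5 were called lower (8.77% of all genes) and none higher (7.56%), with limma. Without ES8, ES12 and ES16 these counts were 9 lower and 5 higher in GFP+ nuclei and 7 lower and 2 higher in GFP- nuclei. In GFP+ nuclei Tac2 (1.81 ± 0.28), the neurokinin B precursor gene, was higher, and the transcription factor gene Mafa (-1.76 ± 0.53), Lypd1 (-1.70 ± 0.33) and the neurotensin gene Nts (-1.28 ± 0.35) were lower.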

How the data were processed

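Nuclear RNA of 22 sorted libraries was analysed. Per the submitters' processing notes, Trim Galore, cutadapt, STAR, HTSeq and DESeq2 were used, with settings and a genome build not given in the sources used here. Deposited values per library are a signal: read counts after division by 1 size factor for each library, since 100% of the values were whole multiples of 1 step per library within a tolerance of 0.01. The authors' deposited log2 fold changes and p-values (adjusted) were used only as a comparison, named where printed. Library totals of 4244987 to 10849169 reads set the precision, which is lowest for Pvalb.

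Groups follow the labels. The columns carry library codes, whose age comes from the authors' sheet per age and whose population comes from the list of GFP+ columns. The 18614 of 21363 genes that reached 10 in 3 or more libraries entered 1 limma model (3.58.1 in R 4.3.3, with trend and robust) with 6 group means of log2(value + 1), two-sided, with Benjamini-Hochberg adjustment over all genes tested. The pseudocount understates changes of genes with few reads. A further fit subtracted the mean log2 value of 14 pan-neuronal genes in each library. The fit was tested on simulated data. Alternatives were other pseudocounts, filters and scalings (TMM, total reads), edgeR 4.0.16 and DESeq2 1.42.0 on the recovered reads, each age alone, no robust option, leaving out each library, and leaving out ES8, ES12 and ES16 together. Libraries of a group come from separate animals, per the labels.

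The 5 members, the gene lists and the rules were chosen with earlier results of these data known. Named are the 5 genes, Pdyn, the 3 genes most like each marker, and for each list and comparison up to 4 called genes of largest change. A gene that this rule also names is not reported here. The lists share some genes, such as S100b (calcium sensor and astrocyte) and Maf, Mafa and Tac2 (laminar marker and excitatory neuron). Promoter sequences are from RefSeq (GRCm38.p6), and gene overlaps from GENCODE M21.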

Additional observations from a re-analysis of the deposited data

How the results depend on the processing

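The calls of Rorb, Rora, Calb1 and Calb2 over ages, and of Calb2 in GFP+ nuclei and Pvalb and Rorb in GFP- nuclei at P80 against P7, kept direction and call in every alternative that gave a value, leaving out each library included. Over ages, leaving out single libraries gave 1.02 to 1.16 for Rorb, -0.97 to -0.88 for Rora, -1.06 to -0.96 for Calb1 and -0.91 to -0.75 for Calb2. Pvalb, never called over ages, gave -0.26 to 0.010, positive only without ES15 (0.010), and a filter of 50 removed it. No paired analysis was possible because the columns carry no animal number. Low counts limit Pvalb and, at P80, Calb2. For each cause below, the cause was not tested unless fewer libraries were fitted.

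Counts of genes called moved more than those of the members. Without ES8, ES12 and ES16, GFP- nuclei at P21 rest on ES14 alone. For GFP+ against GFP- at P7, 3203 genes became 5093 with that age alone and 5618 without ES8, ES12 and ES16, and at P21 6128 became 2743 and 2887. In GFP+ nuclei, P21 against P7 gave 433 genes, 715 with DESeq2, 1729 without those 3 libraries and 188 (without ES11) to 802 (without ES16) without single libraries. P80 against P21 gave 45, and 21 at a pseudocount of 5, 5 with edgeR, 78 with DESeq2, 219 without the 3 and 3 (ES11) to 84 (ES8) without single libraries. P80 against P7 gave 1747, 3872 without the 3 and 1085 (ES5) to 2618 (ES16). In GFP- nuclei, P21 against P7 gave 1879, 3160 with edgeR, 3688 with DESeq2, 811 without the 3 and 981 (ES24) to 3883 (ES14). P80 against P21 gave 363, 1334 with edgeR, 1997 with DESeq2, 72 without the 3 and 180 (ES2) to 2640 (ES14). P80 against P7 gave 3041, and 4601 without the 3. The joint test gave 177, 630 with DESeq2, 538 without the 3 and 68 (ES4) to 440 (ES14). In GFP- nuclei, P21 against P7 split into 936 higher and 943 lower (629 and 1537 with total read scaling), and P80 against P21 into 146 and 217 (260 and 194).

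Differences that turned sign were never called. They were Pvalb at P7 (0.011 at a pseudocount of 0.5, -0.29 to 0.42 without single libraries) and at P21 (-0.19 without the 3, -0.10 to 0.71). In GFP- nuclei they were Rora at P21 against P7 (-0.0017 with TMM, -0.10 with total reads, -0.091 to 0.15 without single libraries), P80 against P21 (0.017 with total reads, -0.17 to 0.064) and P80 against P7 (0.084 without the 3, -0.078 to 0.084), Calb1 at P21 against P7 (0.088 without the 3), and Rorb (-0.40 to 0.029) and Calb2 (-0.023 to 0.39) at P80 against P21. In GFP+ nuclei they were Rorb (-0.024 to 0.033), Rora (-0.19 to 0.031) and Pvalb (-0.13 to 0.68) at P80 against P21, and Calb1 (-0.12 to 0.072) at P80 against P7.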
